A study of Mus musculus with 3 samples.

Results

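The 47 genes described here drive or brake the cell division cycle and copy DNA. They were taken as a named set of 47 symbols, named by function with no threshold on a measured value, and all 47 were found among the 55536 mouse genes of the gene quantification. The set was split by role into 12 genes of origin licensing and firing, 5 of DNA synthesis, 9 of mitosis, 8 cyclins, 4 cyclin-dependent kinases (CDKs), 5 CDK inhibitors and 4 transcriptional regulators. Their RNA was measured in macrophages, phagocytes grown in culture out of bone marrow of the inbred mouse strain C57BL/6J, by sequencing of polyadenylated RNA. The 3 libraries are a single group, and their labels number them as biological replicates 1, 2 and 3. Every library came from cells exposed for 180 min to a stimulus at 100 ng/mL and was made from 1 µg of RNA. The labels name the stimulus in 2 ways, as lipid A in the description and as lipoprotein A in the source name and treatment field. All 3 libraries carry the same donor identifier, and sex and age were not collected. Nothing in the labels places the replicates in separate animals or cultures, so the spread between these samples may be technical. No p-value below can be taken to measure a spread between animals. No unstimulated group was analysed here, so no value below is a response to the stimulus.

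Before a cell can copy its DNA, the proteins Cdc6 and Cdt1 load the ring of MCM subunits onto origins, and Cdc45 and the GINS proteins then turn that ring into an active helicase. D-type cyclins with Cdk4 and Cdk6, and then E-type cyclins with Cdk2, inactivate the retinoblastoma protein Rb1 and free E2F factors, which switch on genes for replication. Genes needed for mitosis come later under Foxm1 and related complexes. Bone-marrow macrophages divide in response to the growth factor CSF1, and activation through Toll-like receptor 4 is known to stop that division.

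Expected counts summed over mouse genes came to 24450338 in replicate 1, 34641026 in replicate 2 and 60595742 in replicate 3. The labelled cell type was checked against 10 macrophage markers, of which 10 were detected, with Lyz2, the lysozyme gene, at 13755 TPM or more in every library. TPM is a length-scaled share of all transcripts. Detection required at least 1 TPM in each of the 3 libraries. The spread between libraries beyond counting noise, as edgeR's common biological coefficient of variation (BCV), was 0.231. It was 0.190 for replicates 1 and 3 alone, the only pair for which it was computed.

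Most cell cycle genes lay below the median detected gene, but a few were abundant. Of the 47 members, 30 were detected (63.8%), beside 42.6% of all protein-coding genes. The median member had 2.25, 5.97 and 2.77 TPM in replicates 1, 2 and 3, whereas the median detected gene of the libraries had 14.6 ± 0.535 TPM (SD, n = 3). On the scale of log2(TPM + 0.1), on which the ratios of low genes are understated, the median member lay -2.10 ± 0.68 from the median detected gene. The member median includes undetected genes and the reference does not, which also holds for the class levels below. Restricted to members that pass the count filter described below, the level was -1.48 ± 0.40. Summed over members, the level was 1726, 1892 and 1621 TPM. A single gene, the CDK inhibitor gene Cdkn1a, made up 61.8 ± 4.45% of that sum, and the replication clamp gene Pcna 15.8 ± 3.44%. In bulk RNA, fewer cycling cells and less RNA per cycling cell cannot be told apart.

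**Figure D1:**
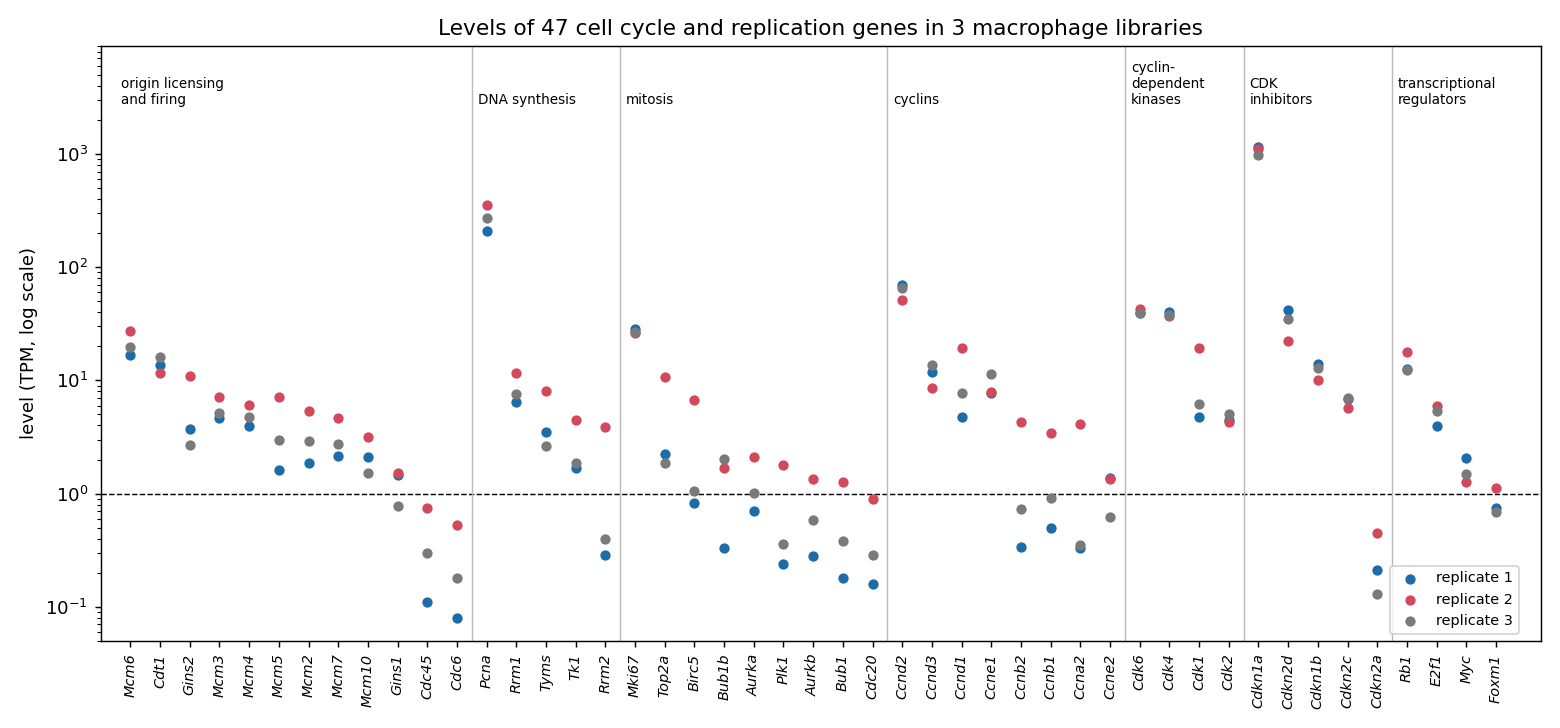
TPM of each of the 47 members (points, 1 per library, coloured by replicate) on a log scale, grouped by role and ordered by mean level within a role; the dashed line marks 1 TPM. Cdkn1a stands between 980 and 1153 TPM, most mitosis genes lie near or below the dashed line in replicates 1 and 3, and the replicate 2 points are the upper ones for 33 of the 47 genes.

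Brakes of the cycle were led by Cdkn1a, which encodes p21, an inhibitor of CDKs that is induced by p53 and other stress signals (chromosome 17, 29090976 to 29100727, mm10). It had 1153, 1101 and 980 TPM in replicates 1, 2 and 3, a mean of 1078 ± 88.5 TPM (SD, n = 3), which is the 98.7th percentile of detected genes. The 3 libraries differed by at most 1.18-fold. Its relative Cdkn1b, which encodes p27, had 14.1, 10.01 and 12.8 TPM. Within each library Cdkn1a exceeded Cdkn1b by 6.45 ± 0.27 on the log2 scale (87.7-fold), on the same side in 3 of 3 libraries (p = 0.25, exact two-sided sign-flip permutation test, the smallest p that 3 libraries allow).

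The INK4 inhibitors bind Cdk4 and Cdk6 and keep them from D cyclins. Cdkn2d, which encodes p19INK4d, had 41.8, 22.5 and 34.7 TPM, and Cdkn2c, which encodes p18INK4c, 6.80, 5.66 and 6.99 TPM. Replicate 2 was the low library for Cdkn2d. The log2 ratio of Cdkn2d to Cdkn2c was 2.29 ± 0.32 (4.89-fold). Cdkn2a, the gene of p16INK4a and ARF that is known for senescence, was the only 1 of the 5 inhibitors in the set that was not detected, at 0.21, 0.45 and 0.13 TPM from 2, 6 and 3 counts. Over all libraries Cdkn1a gathered 134591 counts against 11 of Cdkn2a, a ratio of counts, not scaled for length, of 12236 (exact 95% interval 6838 to 24511, for counting error only). As a group the inhibitors lay at -0.26 ± 0.29 (log2) from the median detected gene, and at 0.43 once Cdkn2a, which has too few counts for the count filter, was left out.

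All 4 kinases were detected. Their level, 0.28 ± 0.47 (log2), was the only class level above the median detected gene, though by less than its SD. Without replicate 2 the level was 0.06 ± 0.13. Cdk4 and Cdk6, the partners of D cyclins, had 40.2, 37.0 and 37.6 TPM and 39.6, 42.9 and 39.7 TPM. Their log2 ratio was -0.09 ± 0.12, which is within the spread between libraries. In CPM, counts scaled by library but not by transcript length, it was -2.35 ± 0.15. Cdk4 overlaps Tspan31, at 90.4 TPM on average, on the other strand. Strandedness of the libraries, not given in the sources used here, decides whether reads of such genes can be told apart. Mcm7, Cdc45, Cdc20, Ccna2, Ccnd1, Ccne2 and Gins2 likewise overlap genes with a mean of 18.2 TPM or more, namely Cops6, Ufd1, Elovl1, Exosc9, LTO1, Ints8 and Gm20388, and are uncertain to that extent. Cdkn1a and Ccnd3 overlap AC167363.2 and Bysl, at 6.75 and 1.69 TPM. Cdk2, the partner of cyclins E and A, stood lower, at 4.44, 4.28 and 5.01 TPM, so that Cdk4 exceeded it by 3.04 ± 0.14 (log2; 8.21-fold).

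Cdk1, the kinase that starts mitosis, had 4.8, 19.4 and 6.17 TPM, and replicate 2 stood above both other libraries. The log2 ratio of Cdk2 to Cdk1 was -0.85 ± 1.13, within its spread. It turned to 0.90 in CPM, where Cdk1 had 42, 266 and 166 counts against 154, 206 and 399 of Cdk2, and it was -0.20 in TPM without replicate 2. A short retained-intron transcript of 475 bases, Cdk1-204, held 50.01 ± 8.84% of the TPM of Cdk1.

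Among the cyclins, those of G1 were present and those of S phase and mitosis were scarce in replicates 1 and 3. Ccnd2 was the main D cyclin, with 69.7, 51.4 and 65.1 TPM and 73.5 ± 8.16% of the summed TPM of the 3 D-type cyclins. Ccnd3 had 11.9, 8.60 and 13.8 TPM, below Ccnd2 by a log2 ratio of -2.45 ± 0.19, and of -4.30 in CPM. Ccnd1 had 4.71, 19.4 and 7.77 TPM and was highest in replicate 2, where Ccnd2 and Ccnd3 were lowest. The log2 ratio of Ccnd1 to Ccnd3 was accordingly -1.31, 1.17 and -0.82 in the 3 libraries, and its mean of -0.32 ± 1.31 is within the spread. It was 0.17 without replicate 1, -1.07 without replicate 2 and 0.84 in CPM. The sum of the D cyclins varied little, at 86.2, 79.4 and 86.6 TPM.

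Cyclin E binds Cdk2 at the start of S phase. Ccne1 had 7.76, 7.89 and 11.3 TPM and Ccne2 1.37, 1.34 and 0.62 TPM, a log2 ratio of 2.96 ± 0.89 (7.78-fold), which was 2.25 with a pseudocount of 1 TPM and 2.32 in CPM. The cyclins of S phase, G2 and mitosis reached 1 TPM in replicate 2 only. Ccna2 (chromosome 3, 36564865 to 36572150) had 0.33, 4.09 and 0.35 TPM. Ccnb1 followed with 0.50, 3.45 and 0.91 TPM, and Ccnb2 with 0.34, 4.32 and 0.73 TPM. Together the 3 genes had 1.17, 11.9 and 1.99 TPM. Ccnb1 and Ccnb2 did not differ from each other beyond the spread, with a log2 ratio of 0.14 ± 0.40, of -0.017 without replicate 1 and of 0.73 ± 0.31 in CPM.

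**Figure D2:**
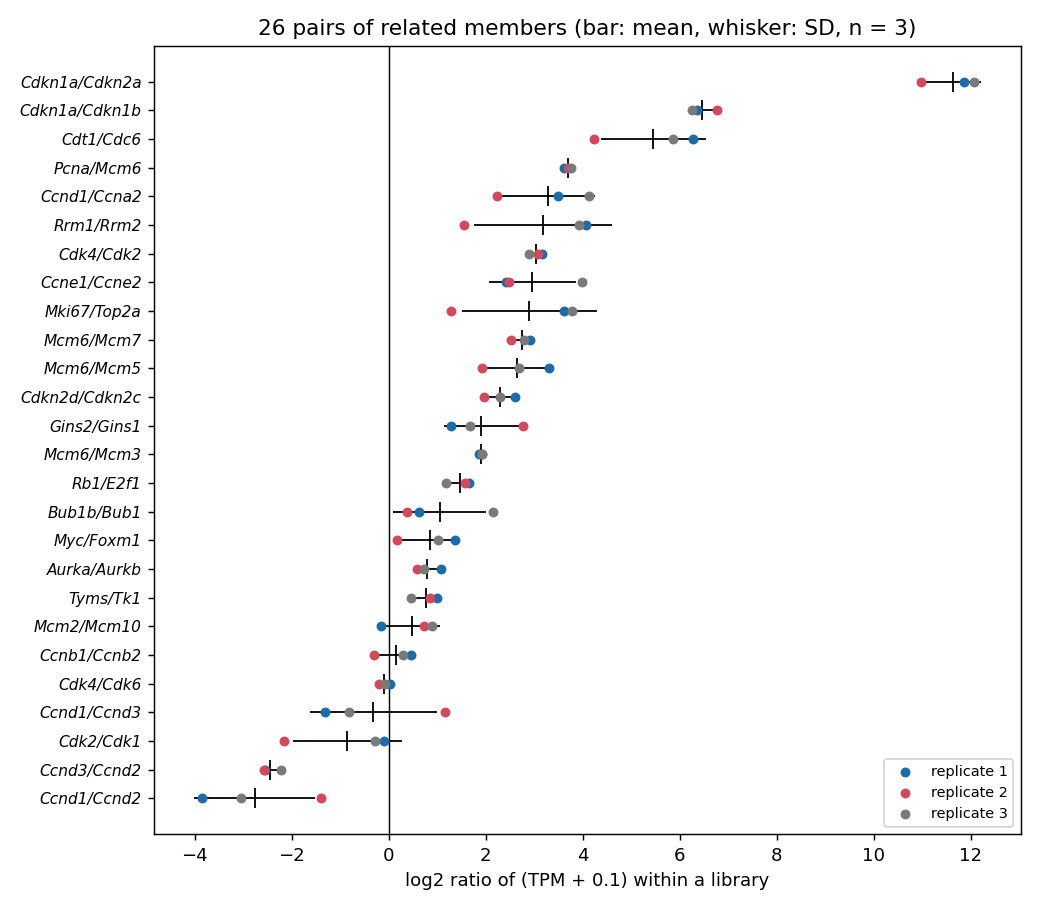
Log2 ratio of (TPM + 0.1) for 26 pairs of related members, with 1 point per library coloured by replicate, the mean as a vertical bar and the SD as a whisker (n = 3). In 22 of 26 pairs all libraries lie on the same side of 0, and replicate 2 lies apart from the other libraries for Mki67/Top2a, Rrm1/Rrm2 and the pairs with Ccnd1.

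Licensing genes lay at -2.13 ± 0.67 (log2), with 9 of 12 detected. The MCM subunits form a ring of 6 different proteins in equal numbers, but their RNA levels were unequal. Mcm6 (chromosome 1, 128331590 to 128359664) had 16.9, 27.4 and 19.8 TPM and made up 51.1 ± 3.48% of the summed TPM of Mcm2 to Mcm7. Mcm3 had 4.61, 7.20 and 5.14 TPM, and the log2 ratio of Mcm6 to Mcm3 was 1.90 ± 0.04 (3.72-fold). Its SD was larger, 0.17, in the second deposited quantification. Mcm4 had 3.93, 6.01 and 4.72 TPM, Mcm5 1.63, 7.13 and 2.99 TPM, Mcm2 1.88, 5.32 and 2.92 TPM and Mcm7 2.16, 4.69 and 2.77 TPM. Replicate 2 was the high library for each of these 6 genes. Mcm6 exceeded Mcm7 by 2.74 ± 0.20 and Mcm5 by 2.64 ± 0.69 (log2).

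The loaders themselves were far apart. Cdt1 had 13.8, 11.6 and 16.1 TPM and was the only licensing gene lowest in replicate 2, whereas Cdc6 had 0.08, 0.53 and 0.18 TPM from 3, 15 and 5 counts. Their log2 ratio of 5.45 ± 1.08 (43.6-fold) was 3.56 with a pseudocount of 1 TPM and 6.06 without replicate 2. Cdt1 overlaps the predicted gene Gm20388, at 20.9 TPM on average. Of the activators of the helicase, Cdc45 had 0.11, 0.74 and 0.30 TPM, Gins1 1.47, 1.51 and 0.78 TPM, Gins2 3.73, 10.9 and 2.70 TPM and Mcm10 2.10, 3.18 and 1.53 TPM. Gins2 differed less by counts, at 165, 351 and 381. In CPM with TMM scaling it was 0.52 (log2) higher in replicate 2 than in the mean of the other libraries. Mcm2 and Mcm10 did not differ beyond the spread (log2 ratio 0.49 ± 0.56).

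Of the genes of DNA synthesis, which lay at -1.78 ± 0.77 (log2), only Pcna was abundant. Pcna, whose clamp holds DNA polymerase on its template and also serves repair (chromosome 2, 132249162 to 132253314), had 208, 355 and 270 TPM, at the 94.4th percentile of detected genes. Its processed pseudogene Pcna-ps2, whose reads may be shared with it, was assigned 1.97, 3.74 and 1.96 TPM. Pcna exceeded Mcm6 by 3.69 ± 0.07 (log2; 12.9-fold), and by 2.57 in CPM. Rrm1 and Rrm2 encode the subunits of ribonucleotide reductase, which makes deoxynucleotides. Rrm1 had 6.39, 11.6 and 7.51 TPM. Rrm2, the subunit known to be made in S phase, had 0.29, 3.89 and 0.40 TPM, so it passed 1 TPM in replicate 2 only. The log2 ratio of Rrm1 to Rrm2 was 4.06, 1.55 and 3.93 in the 3 libraries. The nucleotide enzymes Tyms and Tk1 had 3.5, 8.02 and 2.61 TPM and 1.70, 4.43 and 1.87 TPM.

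Mitosis genes were the lowest class, at -3.92 ± 1.07 (log2), and 2 of 9 were detected. Mki67, which encodes the Ki-67 antigen used to stain dividing cells (chromosome 7, 135689784 to 135716361), was the exception, at 28.5, 26.3 and 26.9 TPM. The other detected gene was Top2a, the topoisomerase that untangles chromosomes (chromosome 11, 98992943 to 99024189), at 2.25, 10.7 and 1.87 TPM. Mki67 exceeded Top2a by 3.61, 1.29 and 3.78 on the log2 scale in replicates 1, 2 and 3. The pair, often used together as markers of dividing cells, thus lay closest in replicate 2.

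The remaining mitosis genes ranged from 0.16 to 6.76 TPM. Birc5, which encodes survivin of the chromosomal passenger complex, had 0.83, 6.76 and 1.05 TPM, and Plk1, a mitotic kinase gene, 0.24, 1.80 and 0.36 TPM. The spindle checkpoint genes Bub1 and Bub1b had 0.18, 1.26 and 0.38 TPM and 0.33, 1.67 and 2.03 TPM. The Aurora kinase genes Aurka and Aurkb had 0.70, 2.09 and 1.02 TPM and 0.28, 1.36 and 0.58 TPM, and Cdc20, an activator of the ubiquitin ligase that ends mitosis, 0.16, 0.89 and 0.29 TPM. By TPM, only Bub1b among these 7 was not highest in replicate 2, and in CPM with TMM scaling it too was highest there, by 0.21 (log2) over replicate 3.

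The transcriptional regulators lay at -2.33 ± 0.07 (log2). Rb1, the retinoblastoma gene, had 12.6, 17.9 and 12.4 TPM and exceeded E2f1, whose product the Rb1 protein binds and which had 3.95, 5.97 and 5.42 TPM, by 1.47 ± 0.25 (log2; 2.76-fold), and by 2.21 in CPM. Myc, a growth regulator, had 2.05, 1.27 and 1.5 TPM, and Foxm1, an activator of mitosis genes, 0.74, 1.12 and 0.69 TPM. Rb1 overlaps Rcbtb2 on the annotation, at 136 TPM on average. In 21 of the 26 pairs the mean ratio exceeded the SD, and 18 pairs lay over 2-fold apart. These counts describe the listed pairs only, which were chosen with earlier results known. No share over other gene pairs was taken. No pair could pass a threshold of 0.05 with 3 libraries.

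Most genes of licensing, DNA synthesis and mitosis were highest in replicate 2, while 3 of the 4 CDK inhibitors tested were lowest there. To compare libraries, counts were tested against equal rates, gene by gene, with edgeR's TMM scaling between libraries and a chi-square test. Its p-values set the libraries against counting error only and not against the spread of a group, so well-counted genes are called at small differences: Cdkn1a, which differed by -0.22 (log2) from replicate 1 to replicate 3 and by less between the other pairs of libraries, had adjusted p = 7.9e-105. Of the 47 members, 40 passed edgeR's filter on low counts, which for a single group of 3 asks for a minimum in every library, so that genes near 0 in any library drop out. The 7 that did not were Cdc6, Cdc45, Aurkb, Plk1, Cdc20, Ccnb2 and Cdkn2a. Departure from equal rates (Benjamini-Hochberg adjusted p below 0.05) was seen in 38 of 40 members, beside 77.5% of 11611 genes tested. The exceptions were Cdk2 (adjusted p = 0.0927) and Cdkn2c (adjusted p = 0.0752). With replicate 2 left out, 19 of 43 members departed (44.2%), beside 50.6% of 12037 genes. Without replicate 1 and without replicate 3 the members' shares were 93.3% and 87.5%, beside 64.3% and 58.8% of the genes tested.

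Of the 40 members, 27 were highest in replicate 2, beside 37.8% of all genes tested, 8 in replicate 1 (31.6% of all genes) and 5 in replicate 3 (30.6%). A further 11 were lowest in replicate 2 (36.6% of all genes). With every gene of at least 1 count kept, 34 of 47 members were highest in replicate 2, beside 38.3% of 20566 genes. In the median, members were higher in replicate 2 than in the mean of the other libraries by 0.51 on the log2 scale of CPM, against 0.01 for all genes tested. Replicate 3 lay above replicate 1 for 25 of 40 members, beside 50.8% of all genes, with a median difference of 0.22.

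Medians of this difference were as follows by role. It was 1.76 (3.38-fold) for mitosis genes, with 5 of 6 tested highest in replicate 2, and 0.90 (1.87-fold) for DNA synthesis, with 5 of 5. It was 0.57 for licensing, with 9 of 10 highest in that library, 0.50 for cyclins, with 3 of 7, and 0.35 for transcriptional regulators, with 3 of 4. For the kinases it was -0.03, with 2 of 4 highest in replicate 2. The inhibitors were on the other side, at -0.40, with 0 of 4 highest and 3 of 4 lowest in replicate 2. Differences between these classes were not tested.

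Single genes spanned a wide range. Ccna2, with 14, 255 and 33 counts, was 3.58 higher (log2; 11.9-fold) in replicate 2 than in the other libraries, and Rrm2, with 9, 169 and 30 counts, 3.36 higher (10.3-fold). Birc5, Ccnb1, Bub1 and Top2a followed at 2.60, 2.38, 2.36 and 2.31. Cdk1 was higher by 1.70 and Ccnd1 by 1.60. At the other end lay Cdkn2d at -0.88, Ccnd3 at -0.56, Cdkn1b at -0.51, Myc at -0.50, Ccne1 at -0.48, Cdt1 at -0.46 and Ccnd2 at -0.42. Cdkn1a at -0.04, Cdk6 at 0.10, Mki67 at -0.13 and Cdk4 at -0.16 stood close to 0, although their counts departed from equal rates. From replicate 1 to replicate 3, Ccna2 differed by -0.03, Top2a by 0.13, Rrm2 by 0.45, Ccne1 by 0.51, Myc by -0.37 and Cdkn1a by -0.22. Bub1b, higher by 1.83 in replicate 3, and Ccne2, lower by 1.10 there, were the members furthest apart.

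Spread was also estimated gene by gene, by edgeR's tagwise values, which are drawn toward those of genes with similar counts. Part of a low-count gene's value therefore reflects its counts. The median gene-wise BCV was 44.9% for mitosis genes and 26.4% for all members, against 21.3% for all genes tested. Leaving out replicate 2 brought these to 26.6%, 20.0% and 17.7%. In that setting Ccna2 had 25.7% and Cdkn1a 16.1%, although they differed by -0.03 and -0.22 (log2) from replicate 1 to replicate 3. Kinases had 19.8% with all libraries.

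**Figure D3:**
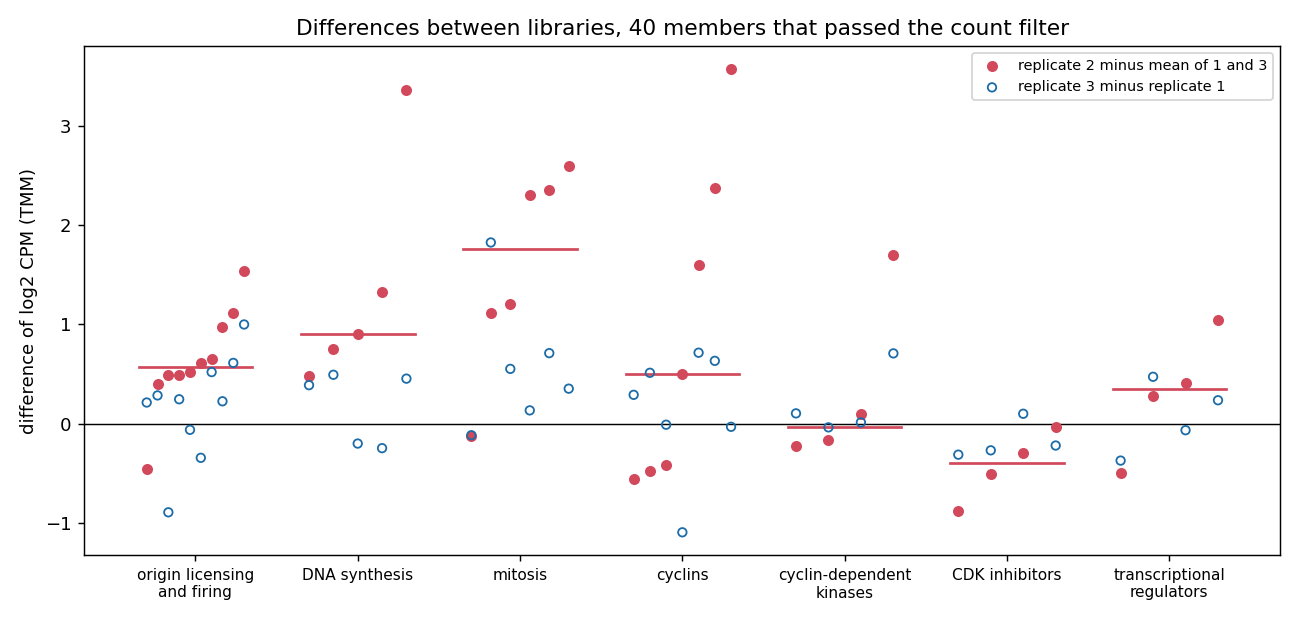
Differences of log2 CPM (TMM scaling) for the 40 members that passed the count filter, by role: filled points show replicate 2 minus the mean of replicates 1 and 3, open points replicate 3 minus replicate 1, and each bar the median of the filled points. Filled points reach 3.58 for Ccna2 and lie below 0 for the CDK inhibitors, while most open points lie within 1 log2 unit of 0.

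Markers of other cell types also differed in replicate 2. Of 14 neutrophil and granulocyte precursor markers, 4 were detected, and the 14 summed to 93.8, 731 and 55.9 TPM in replicates 1, 2 and 3. All 5 that passed the count filter were highest in replicate 2, by a median of 3.44 (log2). S100a9 had 47.1, 432 and 26 TPM, and the granule genes Ngp, Ltf and Camp had 3.94, 60.6 and 2.85 TPM, 1.09, 17.1 and 0.52 TPM, and 0.12, 5.58 and 0.16 TPM. Mpo and Elane, granule genes of early precursors, were lower but also highest in replicate 2, at 0.03, 1.48 and 0.13 TPM and 0.09, 0.87 and 0.07 TPM. Ly6g, a gene of mature neutrophils, was at 0 in every library. Stromal markers summed to 0.35, 7.46 and 0.96 TPM, and mast cell and basophil markers to 0.05, 2.42 and 0.05 TPM, with Fcer1a at 0 throughout. Stem and progenitor markers summed to 1.38, 1.20 and 2.11 TPM and erythroid markers to 1.33, 1.23 and 1.46 TPM, with 5 of 7 erythroid markers at 0 in all libraries. T cell markers summed to 34.9, 25.2 and 46.5 TPM, nearly all from Lck, and endothelial markers to 34.5, 14.96 and 38 TPM. B cell markers summed to 2.71 TPM or less and NK cell markers to 0.44 TPM or less, both highest in replicate 2. Macrophage markers summed to 29699, 19675 and 24136 TPM, most of it from Lyz2 at 23351, 13755 and 17085 TPM. Of the 10 macrophage markers, 6 were lowest and 3 highest in replicate 2, beside 36.6% and 37.8% of all genes tested. Their median difference was -0.23 (log2). The part of these cell types in the members' differences was not tested.

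**Figure D4:**
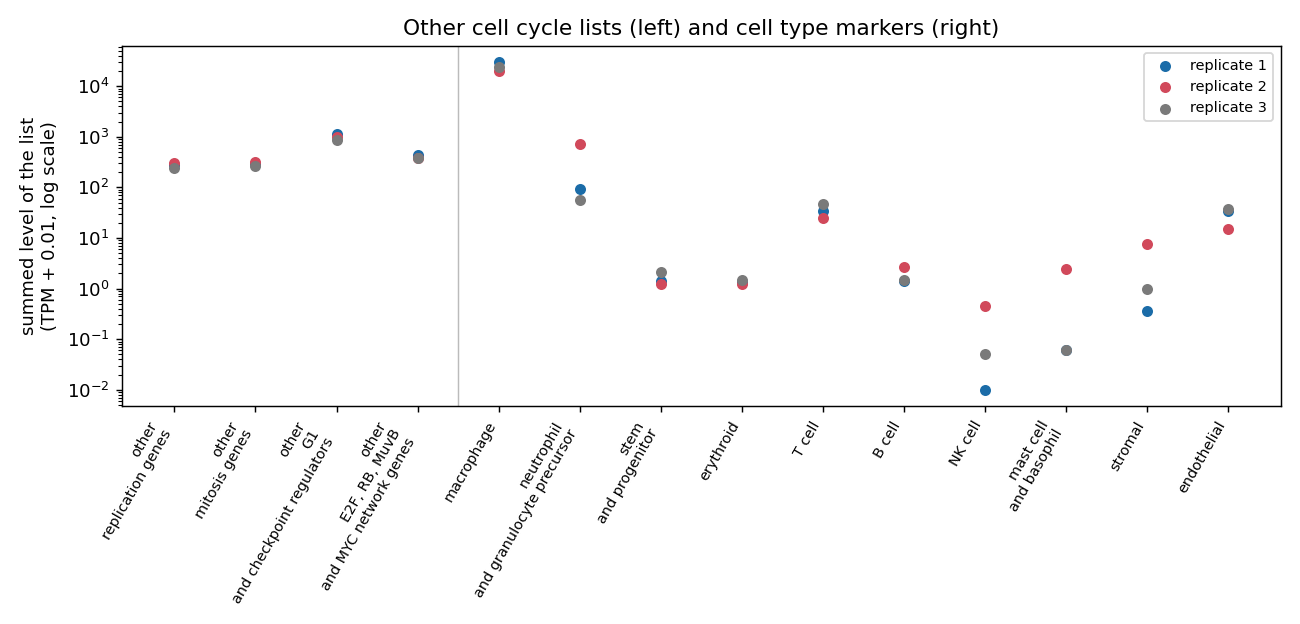
Summed TPM plus 0.01 (log scale) of 4 further cell cycle lists, left of the line, and 10 lists of cell type markers, right of it, with 1 point per library coloured by replicate. The neutrophil list reaches 731 TPM in replicate 2 against 93.8 and 55.9 TPM, whereas the sums of the cell cycle lists, which their most abundant genes set, lie close together.

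The rest of the machinery, 124 further genes in 4 lists, was described in the same way. Other mitosis genes lay at -3.37 ± 0.77 (log2) with 17 of 40 detected, and 20 of 28 tested were highest in replicate 2, with a median difference of 1.20. Their most abundant members were Pttg1, the securin gene, at 138, 111 and 128 TPM, the centromeric histone gene Cenpa at 49.6, 28.8 and 40.02 TPM, and the checkpoint gene Mad2l1 at 13.7, 38.3 and 15.1 TPM. Only Mad2l1 of these 3 was high in replicate 2. Cenpf was lowest, at 0, 0.25 and 0.02 TPM. All 28 tested departed from equal rates, beside 77.5% of all genes; the 20 highest in replicate 2 stand beside 37.8%.

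Other replication genes lay at -1.96 ± 0.33 with 30 of 40 detected, led by Rfc2, Orc4 and Pold3 at 32.1, 28.3 and 27.2 TPM on average, and with Clspn lowest at 0.12, 0.35 and 0.06 TPM. Of 37 tested, 24 were highest in replicate 2, with a median difference of 0.33, and 25 departed from equal rates, a smaller share than the 77.5% of all genes. Other G1 and checkpoint regulators lay at -1.15 ± 0.10 with 18 of 22 detected. Gadd45b, a stress gene, had 784, 609 and 527 TPM, Mdm2, the p53 ligase and target, 86.2, 111 and 64.2 TPM, and Ccng2 70.6, 74.5 and 65.9 TPM, while the checkpoint kinase gene Chek1 was lowest, at 0.20, 0.53 and 0.06 TPM. Here 7 of 20 tested were highest in replicate 2, near the share of all genes (37.8%), with a median difference of 0.05. The network of E2F, RB, MuvB and MYC genes lay at -1.40 ± 0.06 with 17 of 22 detected, 8 of 19 highest in replicate 2, also near that share, and a median of 0.03. It was led by Max at 176 ± 2.31 TPM, Mxd1, a partner of Max that opposes Myc, at 115.5, 60.4 and 75.5 TPM, and Rbl1 at 26.9 ± 3.19 TPM, with Mycn lowest at 0, 0.04 and 0.02 TPM.

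Promoter sequence was set beside these levels. RefSeq promoter windows (GRCm38.p6; 250 bases before to 50 after the start site) were found for 36 of the 47 members, in 41 windows, and for 27025 genes in all. Both strands were searched for 4 spellings of the E2F site (TTTCCCGC, TTTCGCGC, TTTGCCGC, TTTGGCGC), for the cell cycle homology region CHR (TTTGAA), which the MuvB complex binds, and for CCAAT, the NF-Y site. E2F letters were present for 9 of 36 members (25%), beside 2.61% of all genes, and 6 of the 9 are licensing genes. CHR letters were present for 10 members (27.8%), beside 20.2% of all genes, and in 6 of 8 mitosis genes. CCAAT letters were present for 26 members (72.2%), beside 41.1% of all genes. A match describes letters and not a bound site.

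The windows of 6 members are shown from 250 bases before the start site to 15 after it, in the direction of the gene, with matches on either strand in capitals: Mcm6 and Mcm5 for licensing, Cdk1, Ccnb2 and Top2a for members high in replicate 2, and Mki67 for a mitosis gene that was not.
Mcm6, chr1:128359691-128359955, minus strand: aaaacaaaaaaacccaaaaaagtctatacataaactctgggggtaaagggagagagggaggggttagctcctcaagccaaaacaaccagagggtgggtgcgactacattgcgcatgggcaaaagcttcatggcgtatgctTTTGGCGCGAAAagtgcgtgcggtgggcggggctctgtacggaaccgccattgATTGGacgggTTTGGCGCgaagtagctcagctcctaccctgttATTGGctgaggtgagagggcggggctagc
Mcm5, chr8:75109259-75109523, plus strand: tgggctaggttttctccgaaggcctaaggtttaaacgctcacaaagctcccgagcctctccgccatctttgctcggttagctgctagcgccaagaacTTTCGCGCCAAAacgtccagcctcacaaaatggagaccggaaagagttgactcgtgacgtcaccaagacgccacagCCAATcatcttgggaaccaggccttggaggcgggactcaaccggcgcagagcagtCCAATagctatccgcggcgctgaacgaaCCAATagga
Cdk1, chr10:69352898-69353162, minus strand: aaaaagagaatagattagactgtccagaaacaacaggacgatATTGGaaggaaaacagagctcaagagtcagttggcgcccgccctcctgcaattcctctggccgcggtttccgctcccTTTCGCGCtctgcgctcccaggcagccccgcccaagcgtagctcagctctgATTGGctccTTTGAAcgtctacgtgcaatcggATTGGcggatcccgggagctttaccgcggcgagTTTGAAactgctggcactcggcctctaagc
Ccnb2, chr9:70421540-70421804, minus strand: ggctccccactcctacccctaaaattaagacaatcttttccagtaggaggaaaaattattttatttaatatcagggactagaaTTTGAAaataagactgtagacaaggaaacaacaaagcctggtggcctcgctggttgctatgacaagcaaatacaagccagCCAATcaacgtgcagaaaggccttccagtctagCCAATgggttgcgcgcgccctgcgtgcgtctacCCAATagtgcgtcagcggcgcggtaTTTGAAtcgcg
Top2a, chr11:99024175-99024439, minus strand: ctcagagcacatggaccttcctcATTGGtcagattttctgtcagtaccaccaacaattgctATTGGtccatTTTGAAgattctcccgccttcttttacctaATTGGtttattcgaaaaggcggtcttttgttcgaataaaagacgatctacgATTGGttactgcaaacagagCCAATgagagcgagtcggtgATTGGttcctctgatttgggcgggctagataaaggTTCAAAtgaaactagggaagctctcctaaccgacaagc
Mki67, chr7:135716365-135716629, minus strand: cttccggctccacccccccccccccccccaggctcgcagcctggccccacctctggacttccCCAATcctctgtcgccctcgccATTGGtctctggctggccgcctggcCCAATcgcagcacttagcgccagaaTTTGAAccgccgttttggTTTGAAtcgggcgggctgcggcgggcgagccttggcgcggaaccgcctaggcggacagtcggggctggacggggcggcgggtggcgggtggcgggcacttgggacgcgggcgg

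Counted from the start site, by the leftmost letter of each match, Mcm6 had E2F letters at -110, -106 and -47, of which the first pair overlaps on opposite strands, as does the pair of Mcm5 at -153 and -149. Cdk1 held E2F letters at -131, CHR letters at -71 and -15 and CCAAT letters at -208, -80 and -48. Ccnb2 had CHR letters at -167 and 5, and 3 CCAAT matches at -87, -54 and -21. Top2a, 4.95-fold higher in replicate 2, had 2 CHR and 6 CCAAT matches. Mki67, at 0.92 times the other libraries in replicate 2, had 2 CHR matches as well, at -116 and -98, and 3 CCAAT matches. Rrm2, Birc5, Ccnb1 and Bub1, at 10.3, 6.04, 5.20 and 5.13 times the other libraries in replicate 2, had no TTTGAA on either strand. Other spellings of the CHR were not searched, so these windows may still hold one. Whether CHR letters go with a high level in replicate 2 was not tested. Birc5 had none of the letters searched for. Cdkn1a had none of these letters in either of its windows.

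Transcript shares, as estimated by the quantifications, describe how much of a member's TPM was assigned to coding transcripts. TPM is scaled by length, so a read of a short transcript weighs more. The median detected member had 98.8% of its TPM in protein-coding transcripts, against 96.7% for all detected protein-coding genes, and 6 of 30 members (20.0%) lay under 75%, beside 16.7%. These were Tyms at 19.7 ± 9.24%, Tk1 at 42.1 ± 30.4%, Cdk1 at 49.99 ± 8.84%, Mcm10 at 64.1 ± 6.86%, Top2a at 69.2 ± 10.5% and Gins2 at 69.2 ± 32.3% (SD, n = 3). In Tyms, a transcript of 618 bases annotated for nonsense-mediated decay, Tyms-205, held 53.2 ± 13.1%. Tk1 and Gins2 varied most by library, Tk1 with 15.3, 75.1 and 35.8% in coding transcripts from 36, 126 and 73 counts, and Gins2 with 74.5, 34.6 and 98.5%. In the second quantification Mcm10 was at 82.3 ± 13.7%, above 75%, and the other 5 stayed below. For Cdkn1a a single coding transcript of 1913 bases, Cdkn1a-201, held 98.6 ± 0.611%.

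**Figure D5:**
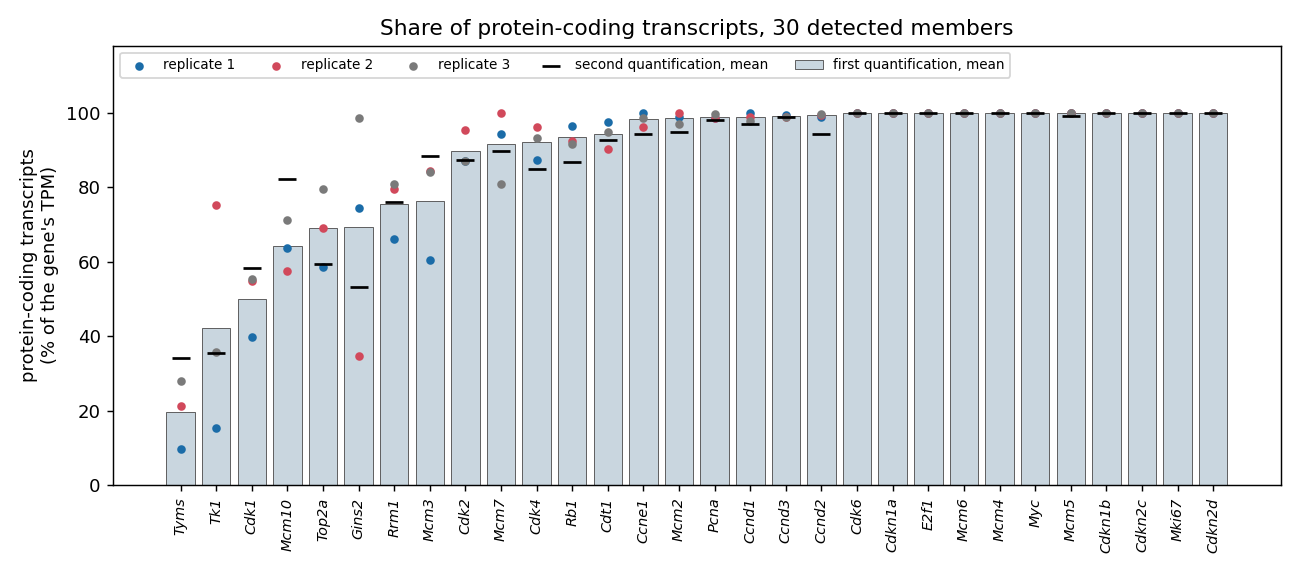
Share of each detected member's TPM in protein-coding transcripts: bars give the mean over 3 libraries in the first deposited quantification, points its single libraries, and black dashes the mean in the second quantification. Shares rise from 19.7% for Tyms to near 100% for the genes at the right, and 6 of 30 bars lie under 75%.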

How the data were processed

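Polyadenylated RNA of 3 libraries of a single group was analysed. Gene tables deposited by the authors give expected counts, TPM and FPKM, per the file headers, and a second deposited quantification holds estimated counts and TPM per transcript. Text files deposited by the authors name mm10 and GENCODE M21. Aligner and quantifiers: not given in the sources used here. TPM was used as deposited with a pseudocount of 0.1. Deposited FPKM entered a single alternative, that of detection. Expected counts were rounded, filtered with filterByExpr of edgeR 4.0.16 in R 4.3.3 and scaled by TMM (factors 0.988, 1.05 and 0.960). Equal rates were tested by chi-square with Benjamini-Hochberg adjustment over all 11611 genes. That step was tested on simulated counts with counting noise only, which is less spread than these libraries had. With a single group, no contrast between groups could be fitted. Gene-wise BCV came from edgeR. Pairs were tested by exact sign-flip permutation over libraries. The interval given covers counting error alone: without molecular identifiers, reads of PCR copies are not independent. Further genes were named as the highest 3 and the lowest 1 of their list, and every member was accounted for. Members, lists and pairs were chosen with earlier results of these data known. Alternatives were other thresholds, pseudocounts, scalings (DESeq2 1.42.0 size factors, total counts), the second quantification, and each replicate left out. Positions count from 1.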

Additional observations from a re-analysis of the deposited data

How the results depend on the processing

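No paired analysis was possible because the 3 libraries form a single group. The median member level ranged from -2.43 to -1.76 (log2) when each replicate was left out, and detected members from 30 to 33. Members that departed from equal rates ranged from 19 (without replicate 2) to 42 (without replicate 1), against 38 with all libraries; fewer libraries enter each of these tests. Restricted to members that pass the count filter, the level of cyclins was -1.13 and that of CDK inhibitors 0.43, since the filter leaves out the lowest genes. The level of transcriptional regulators was -1.98 with a pseudocount of 1 TPM, which raises low values more than high ones on the log scale. It ranged from -2.29 to -2.24 when each replicate was left out. Detected genes were then taken anew from the remaining libraries, so the reference median changed as well. The other 52 of 56 alternative class and member levels moved by less than 1 SD, and 27 of 28 alternative counts stayed within 1.5 times. Of 182 alternative pair ratios, 4 changed sign: Cdk2/Cdk1 to 0.90 and Ccnd1/Ccnd3 to 0.84 in CPM without length scaling, and, without replicate 1, Ccnd1/Ccnd3 to 0.17 and Ccnb1/Ccnb2 to -0.017. With each replicate left out, Ccnd1/Ccnd3 ranged from -1.07 to 0.17 and Ccnb1/Ccnb2 from -0.017 to 0.37. In all, 27 of the 182 ratios moved by over 1.5-fold: 15 in CPM, 5 with a pseudocount of 1 TPM, 6 without replicate 2 and 1 in the second quantification. Beyond those printed above, Tyms/Tk1 went from 0.77 to 0.04 in the second quantification and 0.09 in CPM, and Cdkn1a/Cdkn2a from 11.6 to 9.74 with a pseudocount of 1 TPM and 12.5 in CPM. In CPM, Gins2/Gins1 went from 1.91 to 3.42, Mki67/Top2a from 2.89 to 4.35, Myc/Foxm1 from 0.85 to 0.16, Ccnd1/Ccnd2 from -2.77 to -3.46 and Rrm1/Rrm2 from 3.18 to 3.84. With a pseudocount of 1 TPM, Rrm1/Rrm2 was 2.16, and Ccnd1/Ccna2 went from 3.28 to 2.27. Without replicate 2, Ccnd1/Ccnd2 was -3.45, Rrm1/Rrm2 3.99 and Mki67/Top2a 3.69. Members highest in replicate 2 numbered 27 with DESeq2 size factors, 28 with total counts and 30 of 43 in the second quantification. With total counts 48.4% of all genes were highest in replicate 2. Cdc6, Cdc45, Cdkn2a and Cdc20 rest on 11 to 46 counts over all libraries and are the least precise members.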

Other observations

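Some further values were chosen after they were seen. Cdkn1c, which encodes the CDK inhibitor p57 and was counted among the other G1 and checkpoint regulators, had 17.5, 21.02 and 68.01 TPM in replicates 1, 2 and 3, so replicate 3 was the high library, by 1.98 (log2) over replicate 1. For the mitotic kinesin gene Kif23 the deposited quantifications differed: 0.29, 1.00 and 0.83 TPM in the first, and 11.0, 19.8 and 8.58 TPM in the second. E2f7, a repressor of the E2F family, had 0.01, 0.09 and 0.02 TPM in the first and 1.39, 1.37 and 0.64 TPM in the second. Gins3, a GINS subunit gene outside the set of 47, had 0.41, 0.48 and 0.61 TPM in the first and 2.90, 3.31 and 2.90 TPM in the second, while Gins4, another subunit gene outside the set, had 11.1, 13.7 and 12.3 TPM in the first. For the 30 detected members the second quantification gave between 0.69 times (Tyms) and 1.14 times (Tk1) the mean TPM of the first, with a median of 0.84, beside 0.85 for detected genes.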
